A study of Arabidopsis thaliana with 30 samples.

Results

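Med-F is 1 of 6 F6 lines that the labels trace, through recurrent selection, to crosses between the Arabidopsis thaliana accessions C24 and Landsberg erecta (Ler). Its 3 libraries, labelled siblings 1, 2 and 3, were set against the mean of the reciprocal F1 hybrids C24XLer and LerXC24, which have 3 libraries each, labelled replicates A, B and C. The comparison therefore rests on 9 of the 30 libraries in the series, and they were chosen by their labels and not by any measured value. All 9 are shoots (whole aerial tissue) of untreated 15-day seedlings that were grown in 1 experiment. The other 21 libraries are the parents C24 and Ler and the other F6 lines, which are Med-E, Sml-D and the hybrid mimics HM-G, HM-S and HM-W, and they enter here as shared information on spread and for orientation. No genotype is given beyond the names of the lines, and siblings of a single F6 line describe that line alone. Whether a library came from a single plant or from several is not given, so the p-values may cover technical spread alone.

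An F1 hybrid carries a copy of each parental genome at every locus. After generations of selfing an F6 plant carries, at most loci, a pair of copies from the same parent, so an F6 line is a mosaic of both parental genomes, while the F1 is uniform. The title of the series points to the auxin pathway under PIF4, a light- and temperature-controlled transcription factor that switches on auxin synthesis through the enzyme gene YUC8 and raises auxin-response genes such as IAA29. C24 and Ler are also known to differ at FLC, the repressor of flowering that vernalization silences, which holds down the flowering activators SOC1 and FT.

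Total reads lay between 42539374 and 46670142 in the Med-F libraries and between 45856620 and 52535852 in the F1 libraries. On log2 CPM (CPM being a gene's count divided by the library size and scaled to a common total) the Med-F libraries correlated with each other at 0.983 to 0.989, with C24XLer at 0.963 to 0.982 and with LerXC24 at 0.967 to 0.980, across genes, which are not independent replicates. An index of 10 clock genes, evening minus morning, was at 0.26, 0.16 and -0.10 in Med-F, at -0.56, -0.65 and -0.19 in C24XLer and at -0.12, 0.90 and 1.41 in LerXC24, so Med-F averaged between the reciprocal hybrids on this scale. The time of harvest is not in the labels. Markers of roots, which the labelled tissue should lack, summed to 225 to 347 CPM over 18 genes in Med-F and to 211 to 339 CPM in the F1. Med-F sibling 2 stood apart at seed storage genes: CRU3, a 12S seed storage protein, was at 2.33, 354 and 2.3 CPM in siblings 1, 2 and 3, against 1.69 to 2.13 CPM in the F1, and its relative CRA1 was at 6.88, 186 and 6.13 CPM, against 5.17 to 6.86 CPM. Of 12 seed and pollen markers 6 were called higher in Med-F and 0 lower (14.3% and 13.3% of all genes were), but 1 was higher without sibling 2. Without that library neither CRU3 nor CRA1 was called (adjusted p = 0.27 and 0.31). Where this RNA came from was not tested.

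Of 29268 genes tested, 8082 (27.6%) differed between Med-F and the F1 mean at an adjusted p under 0.05, with 4187 (14.3%) higher and 3895 (13.3%) lower in Med-F. All adjusted p-values here are from edgeR's quasi-likelihood test with Benjamini-Hochberg adjustment over these genes, and 11319 genes had an unadjusted p under 0.05. Most of the differences were small: 1179 of the called genes changed at least 2-fold, 538 upwards and 641 downwards. The count depended on single Med-F libraries, with 5141 genes called without sibling 1, 8225 without sibling 2 and 5937 without sibling 3, and it was 4395 when only the 9 libraries informed the spread. The 3 Med-F libraries all lay above the 6 F1 libraries at 9.65% of tested genes and all below them at 9.07%. At 4889 of the called genes (16.7% of those tested) the 3 Med-F libraries did not overlap with the 6 F1 libraries.

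The 12 largest rises, among called genes with at least 10 CPM on average and no overlap of libraries, included at least 5 genes of iron homeostasis. IMA2 and IMA1, peptides that signal a shortage of iron, the transcription factor BHLH39, the ferric reductase FRO3 (which overlaps another counted gene) and BTS, an E3 ligase that restrains the iron response, were these 5. The others were CRU3, SOC1, ORG1, NUDT24, RXW8, AT5G05250 and AT1G48750, the last overlapping another counted gene. RXW8, a membrane protein of the CSC1-like family, was at 509, 316 and 409 CPM in Med-F, against 105, 118 and 136 CPM (lowest, median and highest) in the F1, 1.79 ± 0.43 higher on the log2 scale (adjusted p = 0.0033; log2 values are given ± their standard error). NUDT24, a nudix hydrolase, rose by 2.18 ± 0.50 on the log2 scale (adjusted p = 0.0020), with 137, 70.1 and 117 CPM in Med-F and 13.7 to 47.0 CPM in the F1.

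The largest falls were at genes with few counted reads in Med-F. Reads were counted on the TAIR10 reference and not on C24 or Ler sequence. An allele that is missing or whose reads do not match it would also count low, which was not tested. AT1G35115, annotated as a pseudogene on chromosome 1 from 12842158 to 12845455 (TAIR10.1, the build of all positions here), had 1 count in all over the 3 Med-F libraries, while the F1 libraries had 13.2, 16.8 and 17.9 CPM at the lowest, median and highest. The F1 mean was 2580 times the Med-F level, with a counting interval of 464 to 102000 that covers counting error only. AOP2, an enzyme that makes alkenyl glucosinolates (chromosome 4, 1351688 to 1354096), was at 1.05, 1.85 and 1.48 CPM in Med-F, against 138, 248 and 280 CPM in the F1, a change of -7.29 ± 0.23 (adjusted p = 1.7e-17). AT2G25510 was at 0.257, 0.362 and 0.234 CPM in Med-F, against 60.6, 97.7 and 157 CPM in the F1 (-8.45 ± 0.62). The remaining falls among the 12 largest were FLC, AT2G05642, AT2G15042, AT5G27345, AT3G44215 and AT3G44430, and AT3G18535, MRD1 and AT1G49032, which overlap other counted genes. Their changes ran from -5.94 to -3.71. At 10 of these 12 genes, FLC among them, C24 was the higher parent and the counted level in Ler was low. AT3G18535 and AT5G27345 had the opposite pattern.

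**Figure D1:**
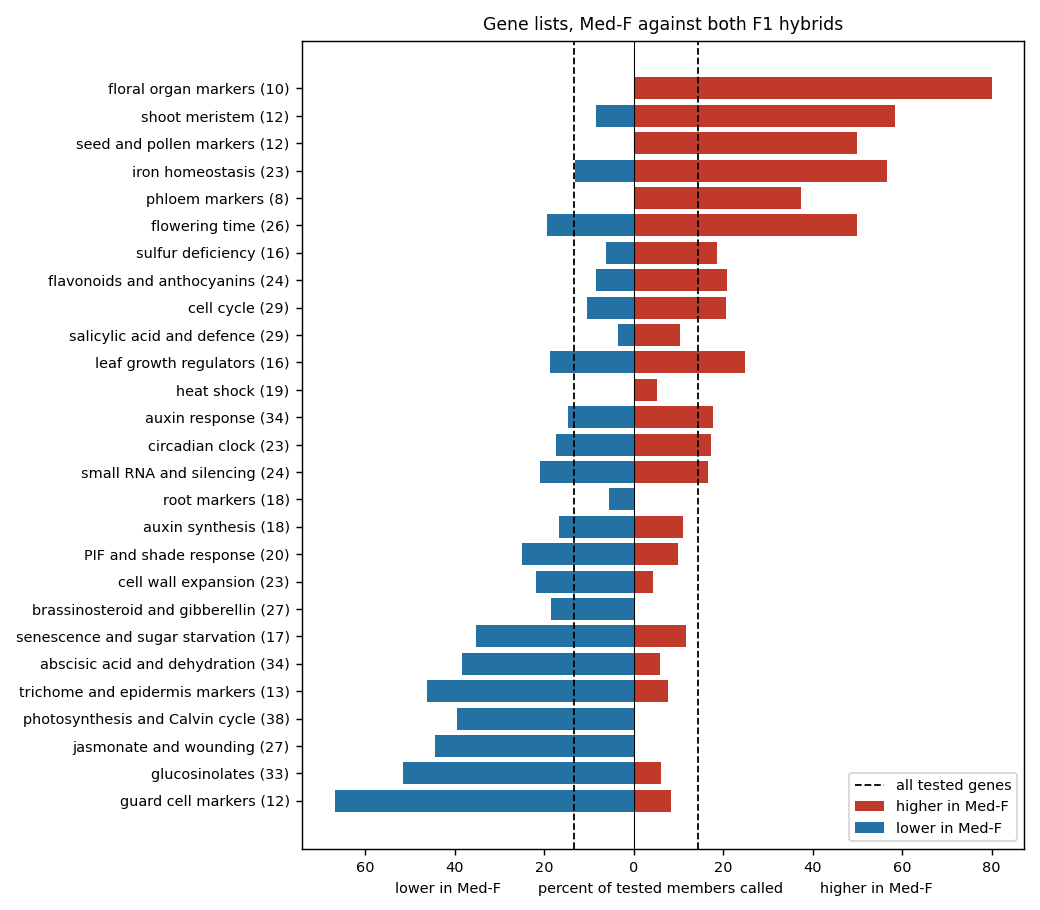
Share of the tested members of each gene list (number tested in brackets) that was called higher (red, to the right) or lower (blue, to the left) in Med-F than in the F1 mean; the dashed lines mark the shares over all tested genes, 14.3% higher and 13.3% lower. The 5 longest bars to the right are floral organ, meristem, iron, seed and pollen, and flowering-time genes, and the 5 longest bars to the left are guard cell, glucosinolate, epidermis, jasmonate and photosynthesis genes.

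The flowering repressor FLC was lower in Med-F, and flowering activators that it holds down were higher. Of 26 tested members 13 were higher in Med-F and 5 lower, beside 14.3% and 13.3% over all genes, and the list median was 0.28 on the log2 scale (0.003 over all genes). FLC (chromosome 5, 3173382 to 3179448) was at 4.21, 2.83 and 4.30 CPM in Med-F, against 43.9, 47.4 and 57.3 CPM in the F1, a log2 change of -3.71 ± 0.17 (adjusted p = 4.6e-14). The groups did not overlap, and Med-F lay between Ler (0.90 ± 0.17 CPM, SD, n = 3) and the F1. SOC1, a MADS-box activator of flowering that FLC represses, was at 118, 87.9 and 93.6 CPM in Med-F, against 17.6, 24.8 and 37.4 CPM in the F1 (2.01 ± 0.15, adjusted p = 4.1e-10). Ler averaged 104 CPM and C24 13.3 CPM, so Med-F lay near Ler.

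FUL, a MADS-box gene that acts beside SOC1, was at 8.64, 7.86 and 11.7 CPM in Med-F, against 1.59, 1.97 and 3.31 CPM in the F1 (2.13 ± 0.16). SPL4, a squamosa-promoter-binding factor of the ageing pathway, was at 14.1, 6.48 and 10.5 CPM, against 1.2, 1.74 and 2.61 CPM (2.55 ± 0.23, adjusted p = 1.6e-08), and its relatives SPL3, SPL5 and SPL15, all overlapping other counted genes, rose by 0.67 to 0.96. FT, the mobile signal that leaves send to the shoot tip, was low in all libraries, with 0.593, 0.616 and 0.762 CPM in Med-F and 0.175 to 0.424 CPM in the F1 (1.09 ± 0.33, adjusted p = 0.017). Not all repressors were low: MAF5, a close relative of FLC on chromosome 5, rose by 1.34 ± 0.11 to 8.26, 9.40 and 10.2 CPM in Med-F, against 3.1 to 4.23 CPM in the F1, and the parents averaged 5.35 CPM in C24 and 5.05 CPM in Ler. MAF2 rose by 0.57 ± 0.08. TEM2, a repressor of FT, fell by 1.38 ± 0.24 on the log2 scale, with 29.3, 41.2 and 29.9 CPM in Med-F and 50.5 to 104 CPM in the F1, FRI, the activator of FLC (overlapping another counted gene), by 0.68 ± 0.09, and the repressor SVP by 0.27 ± 0.09 (adjusted p = 0.029). Leaving out any of the Med-F libraries left 11 to 13 members higher and 4 or 5 lower.

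**Figure D2:**
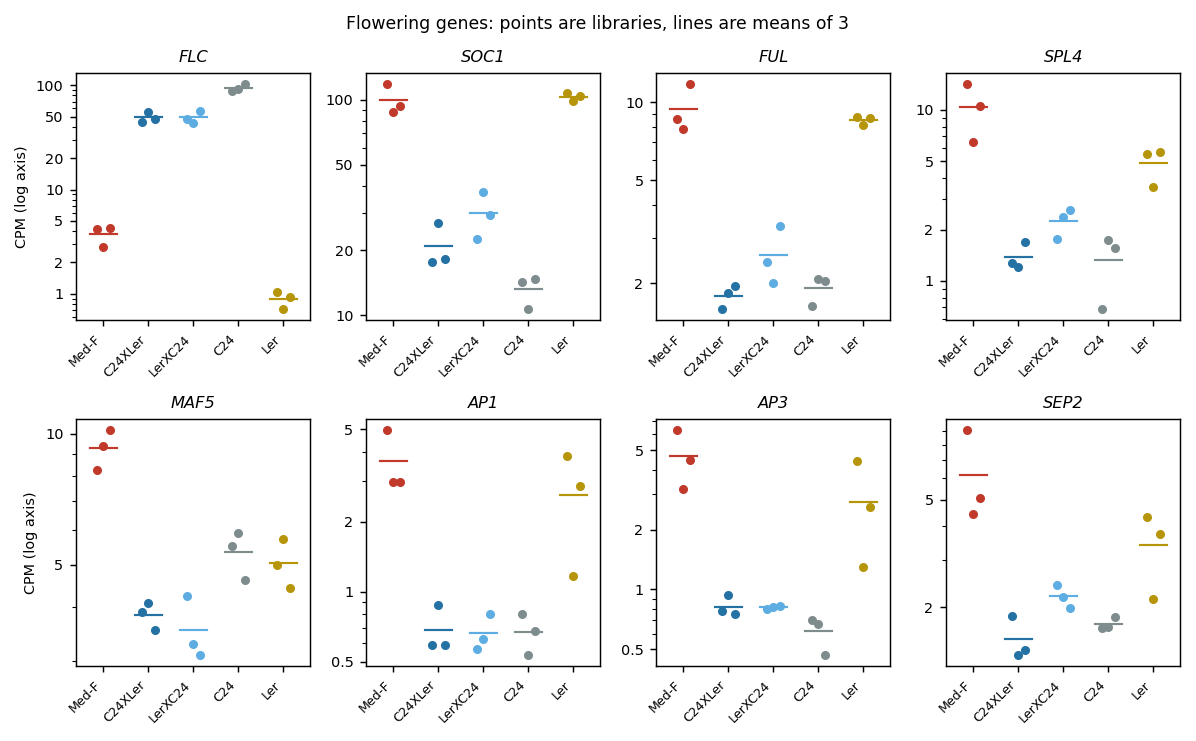
CPM (log axis) of 8 flowering genes in each library of Med-F, both F1 hybrids and both parents; points are libraries and lines are the arithmetic means of 3. FLC is at 2.83 to 4.30 CPM in Med-F and at 43.9 to 57.3 CPM in the F1, and the other 7 genes are higher in every Med-F library than in every F1 library.

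Floral organ identity genes were higher as well. Of 10 tested, 8 were called higher in Med-F and 0 lower (median log2 change 1.5), beside 14.3% and 13.3% of all genes. The count higher was 7 when sibling 1, sibling 3, C24XLer B or LerXC24 B was left out. AP1, which marks the floral meristem, was at 4.94, 2.97 and 2.97 CPM in Med-F, against 0.565, 0.610 and 0.876 CPM in the F1 (2.42 ± 0.30, adjusted p = 2.2e-06). AP3, a petal and stamen gene, was at 6.30, 3.21 and 4.49 CPM, against 0.751 to 0.936 CPM (2.51 ± 0.25). CRC, a carpel gene that overlaps another counted gene, was at 4.70, 1.48 and 1.76 CPM, against 0.245 to 0.626 CPM (2.67 ± 0.35), and SEP1 (overlapping), SEP2, SEP3, PI and AG rose by 0.65 to 1.76. The summed level of the list was 61.3, 38.3 and 45.4 CPM in Med-F, against 22.9 to 26.1 CPM in the F1. In the parents it was 43.4, 30.1 and 38.7 CPM in Ler, overlapping with Med-F, and 20.6 to 21.7 CPM in C24. Sibling 1 had the highest sum, and the pollen gene VGD1 was at 13.8 CPM in sibling 1 and at 1.07 and 1.23 CPM in siblings 2 and 3, beside 0.682 to 1.02 CPM in the F1. In whole shoots a larger share of a cell type and more RNA per cell cannot be told apart, here or in any list that follows.

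Genes of the shoot meristem and organ boundaries shared this direction. Of 12 tested, 7 were called higher and 1 lower (median 0.56), beside 14.3% and 13.3% of all genes. The summed level of the list was 66.6, 61.3 and 57.9 CPM in Med-F, against 33.3 to 59.1 CPM in the F1, and the groups overlapped through C24XLer B. STM, the homeobox gene that keeps the meristem undifferentiated, was at 11, 5.65 and 9.39 CPM in Med-F, against 0.857, 3.69 and 4.66 CPM in the F1 (1.49 ± 0.36, adjusted p = 0.0033). Its low F1 values, 0.857 and 1.02 CPM, were those of C24XLer A and LerXC24 C, which were also lowest for KNAT1 at 1.04 and 1.24 CPM. The boundary genes CUC1, CUC2 and CUC3 rose by 0.61 ± 0.13, 0.71 ± 0.17 and 1.19 ± 0.30, and KNAT2 by 0.84 ± 0.16. KNAT1 (1.23 ± 0.43, adjusted p = 0.037) lost its call when any of siblings 1, 2 and 3, LerXC24 A or LerXC24 C was left out (adjusted p of 0.056 to 0.12). CUC3 lost it without sibling 1, which left 4 members higher.

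Iron genes were higher in Med-F at 13 of 23 members and lower at 3, beside 14.3% and 13.3% of all genes. The median log2 change was 1.07, and the Med-F libraries differed widely among themselves. The peptides IMA1, IMA2 and IMA3 (overlapping) and the factors BHLH38 (overlapping), BHLH39, BHLH100 and BHLH101 (overlapping), all induced by iron shortage, were among those higher, and the 3 that were lower were ferritins, which store iron. IMA1 was at 32.6, 12.6 and 70.0 CPM in Med-F, against 0.403, 1.90 and 12 CPM in the F1 (4.03 ± 0.75, adjusted p = 0.00029). IMA2 was at 42.1, 24.6 and 171 CPM, against 0.350, 3.38 and 16.7 CPM (4.42 ± 0.82). Sibling 3 was highest for both peptides, and the LerXC24 libraries were the lowest. The factors BHLH39 and BHLH100 were also highest in sibling 3. BHLH39 was at 13.9, 10.6 and 81.2 CPM in Med-F, against 1.36 to 9.66 CPM in the F1 (3.59 ± 0.54, adjusted p = 3.2e-05), and BHLH100 was at 19.0, 12 and 149 CPM, against 1.02 to 19.2 CPM (4.12 ± 0.69), overlapping only through C24XLer B.

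BTS was at 252, 151 and 740 CPM in Med-F, against 78.2, 90.4 and 148 CPM in the F1 (1.93 ± 0.33, adjusted p = 0.00014), and FRO3 at 77.0, 47.2 and 256 CPM, against 17.8 to 38.9 CPM (2.37 ± 0.35). PYE, a factor that acts with BTS, rose by 1.38 ± 0.32, the phloem iron transporter OPT3 by 1.48 ± 0.36 and the nicotianamine synthase NAS4 by 1.48 ± 0.35. IRT1, the root iron importer, had 0.652, 1.2 and 4.2 CPM in Med-F, beside 0.203 to 0.572 CPM in the F1. The ferritin genes FER1 and FER4, which both overlap other counted genes, and FER3 fell by 1.84 ± 0.60, 1.86 ± 0.39 and 0.99 ± 0.30 on the log2 scale. FER4 was at 13.0, 20.5 and 5.17 CPM in Med-F, against 23.5, 52.3 and 73.2 CPM in the F1, again with sibling 3 at the end of the range. FER1 was not called without sibling 1, sibling 3 or C24XLer A (adjusted p of 0.061 to 0.12), nor FER3 without sibling 3. Without sibling 3 the list gave 7 members higher and 1 lower with a median of 0.40, and the changes of IMA2, IMA1 and BHLH39 ran down to 3.17, 3.25 and 2.07 over the alternatives without losing the call.

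**Figure D3:**
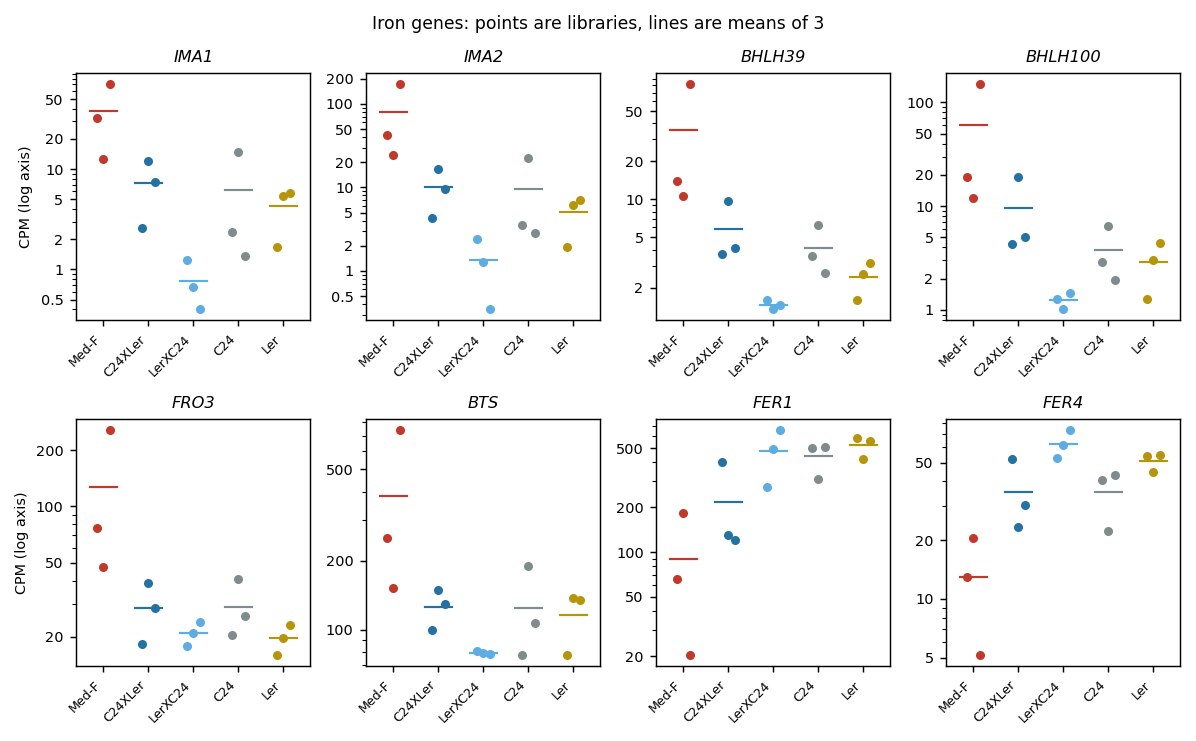
CPM (log axis) of 8 iron genes in each library of Med-F, both F1 hybrids and both parents; points are libraries and lines are arithmetic means of 3. In Med-F sibling 3, the rightmost of the 3 points, IMA1, IMA2, BHLH39, BHLH100, FRO3 and BTS are at their highest and the ferritins FER1 and FER4 at their lowest.

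Among 16 sulfur-deficiency genes 3 were higher and 1 lower (median 0.44), where 14.3% of all genes were higher and 13.3% lower. In the number called this list did not stand out from all genes. The count higher was 7 without LerXC24 A (median 0.84) and 5 with the clock index as a covariate. It was 2 when any of C24XLer B, LerXC24 B, LerXC24 C, sibling 1 and sibling 3 was left out. SULTR1;2, the main sulfate importer of roots, was at 28.0, 35.3 and 28.5 CPM in Med-F, against 7.02, 9.72 and 16.9 CPM in the F1 (1.5 ± 0.22, adjusted p = 1.8e-05), and the vacuolar sulfate exporter SULTR4;2 rose by 1.04 ± 0.21. AST56, another sulfate transporter (SULTR2;2) that overlaps a counted gene, rose by 1.37 ± 0.24 to 40.3, 50.4 and 39.9 CPM, against 13.2 to 25.4 CPM. AST56 and SULTR1;2 are neighbours on chromosome 1, from 29317767 to 29323352 and from 29327515 to 29333220.

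Genes of the cold and dehydration response were lower in Med-F. Of 34 tested, 13 were lower and 2 higher (median -0.52), beside 13.3% and 14.3% of all genes. At 11 members every Med-F library lay below every F1 library (9.07% of all genes did). Several of them are known targets of the CBF and DREB factors, which bind the core CCGAC of the C-repeat element. The 300 bases before the annotated start (RefSeq, TAIR10.1) of 4 of the genes that fell are shown for the copies of this core they hold, in capitals and written 5′ to 3′ on the strand of the gene, where GTCGG is the core read from the other strand.
RD29A, chr5:21240417-21240716, plus strand: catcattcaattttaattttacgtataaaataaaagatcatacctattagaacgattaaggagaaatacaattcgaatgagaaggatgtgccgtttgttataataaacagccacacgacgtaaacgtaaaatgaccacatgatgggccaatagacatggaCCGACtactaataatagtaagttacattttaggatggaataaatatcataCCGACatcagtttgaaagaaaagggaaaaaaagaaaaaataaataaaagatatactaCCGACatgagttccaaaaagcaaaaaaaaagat
COR15A, chr2:17712331-17712630, minus strand: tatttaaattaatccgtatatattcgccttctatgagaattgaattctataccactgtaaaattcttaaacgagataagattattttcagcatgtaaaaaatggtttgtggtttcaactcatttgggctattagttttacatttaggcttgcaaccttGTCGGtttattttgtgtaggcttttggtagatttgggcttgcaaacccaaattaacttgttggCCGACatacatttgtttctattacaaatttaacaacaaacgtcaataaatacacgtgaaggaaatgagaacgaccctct
COR413-PM1, chr2:6949551-6949850, plus strand: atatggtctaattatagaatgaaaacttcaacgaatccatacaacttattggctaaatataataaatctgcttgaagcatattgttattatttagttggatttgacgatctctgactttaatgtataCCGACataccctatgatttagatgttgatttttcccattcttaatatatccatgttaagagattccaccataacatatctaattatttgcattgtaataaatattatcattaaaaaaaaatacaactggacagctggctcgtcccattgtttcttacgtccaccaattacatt
RD26, chr4:13709171-13709470, minus strand: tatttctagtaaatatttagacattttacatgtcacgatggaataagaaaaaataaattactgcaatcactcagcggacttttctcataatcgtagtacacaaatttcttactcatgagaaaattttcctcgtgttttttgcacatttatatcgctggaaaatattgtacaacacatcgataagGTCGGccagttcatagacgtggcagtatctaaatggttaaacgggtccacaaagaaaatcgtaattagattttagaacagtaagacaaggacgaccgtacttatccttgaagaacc
In this reference sequence RD29A holds 3 copies, 140, 90 and 33 bases before the start, COR15A holds 2, and COR413-PM1 and RD26 hold 1 each. The C24 and Ler sequences, which the plants carry, were not read and may differ. Searched on both strands, CCGAC was found before 5 of the 13 list members that were lower (38.5%), before 3 of the other 21 (14.3%) and before 4090 of 28874 tested genes (14.2%). Before the genes lower in Med-F as a whole the share was 16.1%, and before those higher it was 14.4%. As the list holds known targets of the CBF and DREB factors, its shares are a description and were not tested. The fifth of those list members is COR15B, whose window overlaps COR15A and is not printed, and 8 members that fell, CBF1 and KIN1 among them, have no such letters in this window.

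CBF1, a cold-induced factor of this family, was at 0.474, 0.471 and 0.371 CPM in Med-F, against 0.955, 1.83 and 6.86 CPM in the F1 (-2.60 ± 0.60, adjusted p = 0.0024). RD29A, a classical reporter of drought and cold, was at 45.9, 61.8 and 44.5 CPM, against 58.5, 202 and 499 CPM (-2.02 ± 0.41, adjusted p = 0.00079), and the groups overlapped through LerXC24 C. COR413-PM1, a membrane protein of cold acclimation, varied little within the groups, with 166, 193 and 180 CPM in Med-F, against 347, 369 and 439 CPM in the F1 (-1.07 ± 0.10, adjusted p = 1.7e-08). Its parents averaged 371 CPM in C24 and 333 CPM in Ler, so Med-F averaged below both parents. COR15A, which protects chloroplast membranes from freezing, was at 317, 304 and 379 CPM, against 527, 616 and 848 CPM (-0.99 ± 0.15), and COR15B (overlapping) fell by 1.45 ± 0.18 on the log2 scale. The dehydrins ERD10 and COR47 fell by 1.51 ± 0.23 and 1.33 ± 0.17, and KIN1 and KIN2, near-identical copies whose reads are hard to separate, by 1.57 ± 0.25 and 1.1 ± 0.24. The factor RD26 was at 13.1, 13.7 and 10.1 CPM in Med-F and at 18.4, 26.7 and 129 CPM in the F1 (-1.87 ± 0.45), with 126 and 129 CPM in C24XLer A and B. CYP707A1, which breaks down abscisic acid, rose by 0.53 ± 0.12.

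The fall was counted at more members against C24XLer (25 of 34 lower, where 11.2% of all genes were lower) than against LerXC24 (8 of 34, where 12.5% were), and the list median was -1.10 against C24XLer and -0.04 against LerXC24. The comparisons share the Med-F libraries, and the difference between these counts was not tested. Against C24XLer RD29A was -2.87 ± 0.46 (adjusted p = 0.00011) and against LerXC24 -1.17 ± 0.44 (adjusted p = 0.053).

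**Figure D4:**
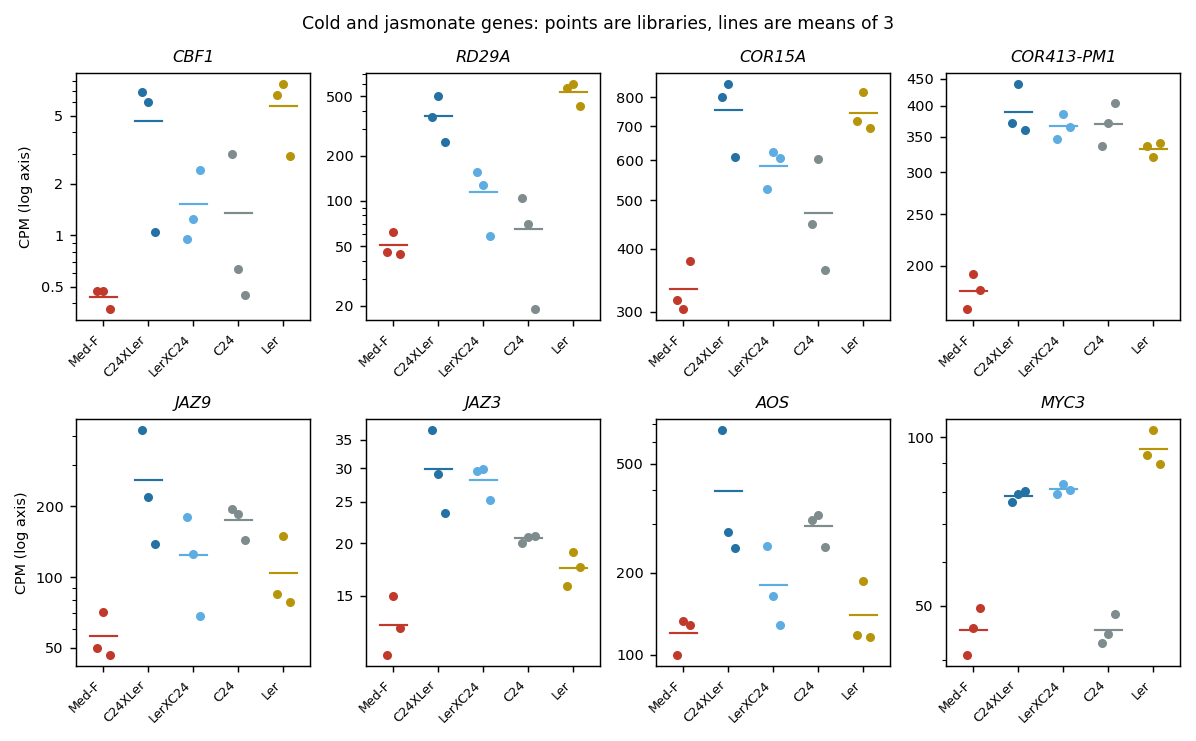
CPM (log axis) of 4 cold and 4 jasmonate genes in each library of Med-F, both F1 hybrids and both parents; points are libraries and lines are arithmetic means of 3. COR15A, COR413-PM1, CBF1, JAZ3 and MYC3 are lower in every Med-F library than in every F1 library, and C24XLer A is the highest F1 library for JAZ9, JAZ3 and AOS.

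Jasmonate and wound-response genes were lower in Med-F at 12 of 27 members and higher at 0, beside 13.3% and 14.3% of all genes. The list median was -0.86. JAZ proteins are repressors that the hormone itself induces and then removes. JAZ9 was at 49.8, 71.1 and 46.7 CPM in Med-F, against 68.2, 159 and 422 CPM in the F1 (-1.69 ± 0.34, adjusted p = 0.00064). JAZ3 was at 10.9, 15.0 and 12.6 CPM, against 23.6, 29.4 and 36.9 CPM (-1.18 ± 0.15, adjusted p = 3.0e-06), and here the groups did not overlap and both parents averaged more than Med-F, with 20.5 CPM in C24 and 17.4 CPM in Ler. AOS, which makes the first committed precursor of jasmonate, was at 100, 133 and 128 CPM, against 128, 248 and 664 CPM (-1.16 ± 0.29), and the lipoxygenase LOX3 at 9.66, 13.2 and 11.5 CPM, against 12.4, 17.9 and 87.8 CPM (-1.2 ± 0.36, adjusted p = 0.014). C24XLer A was the highest F1 library for JAZ9, AOS and LOX3, and without it 10 members were lower with a median of -0.52. MYC3, a factor that JAZ proteins bind, was at 40.9, 45.6 and 49.6 CPM in Med-F, against 76.7, 79.8 and 82.7 CPM in the F1 (-0.81 ± 0.08, adjusted p = 1.0e-07). The parents averaged 45.2 CPM in C24 and 95.1 CPM in Ler, so Med-F lay near C24. LOX3 was not called without sibling 1 or sibling 3, and the number called lower was 7 without sibling 3. Against C24XLer 17 of the 27 genes were lower, with a median of -1.39, and against LerXC24 6 were, with a median of -0.31. The shares of all genes lower were 11.2% and 12.5%.

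The glucosinolate list holds genes that make the mustard oil precursors of the cabbage family and their activating enzymes. Of 33 members 17 were lower and 2 higher (median -0.63), beside 13.3% and 14.3% of all genes. Beside AOP2 the falls included CYP79F1, which starts the aliphatic pathway, at 58.1, 70.5 and 36.8 CPM in Med-F, against 43.2, 263 and 299 CPM in the F1 (-1.93 ± 0.36, adjusted p = 0.00032). The regulator MYB76 was at 2.11, 2.15 and 0.898 CPM, against 2.1, 7.64 and 11.9 CPM (-1.92 ± 0.35), and the bile acid transporter relative BAT5 fell by 1.3 ± 0.34 on the log2 scale. LerXC24 C was the lowest F1 library for CYP79F1, MYB76, MYB29, BCAT4 (overlapping), MAM1 and AOP2, and it overlapped with Med-F at all of these but AOP2. The activating enzyme TGG1, a myrosinase of guard cells and phloem idioblasts, was at 2750, 2670 and 3630 CPM in Med-F, against 4200, 4610 and 5480 CPM (-0.65 ± 0.10), and its modifier ESP fell by 0.76 ± 0.16. TGG2 was the exception, at 1240, 1040 and 1550 CPM in Med-F, against 822, 1020 and 1160 CPM (0.32 ± 0.12, adjusted p = 0.043, but 0.051 to 0.41 without C24XLer A, C24XLer C, LerXC24 B, sibling 1 or sibling 3), and so was the transporter GTR1 (overlapping, 0.69 ± 0.16). The number of members called lower was 10 without sibling 1, 9 without sibling 3 and 11 without LerXC24 A. Against C24XLer it was 22 of 33 (median -0.98, with 11.2% of all genes lower), and against LerXC24 7 (median -0.19, with 12.5% lower).

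Photosynthesis genes were slightly lower in Med-F. Of 38 tested, 15 were lower and 0 higher (median -0.21), beside 13.3% and 14.3% of all genes. At 12 members every Med-F library lay below every F1 library (9.07% of all genes did). The photosystem I subunit PSAF was at 2660, 2720 and 1590 CPM in Med-F, against 3110, 4140 and 4490 CPM in the F1 (-0.79 ± 0.14, adjusted p = 0.00020). RBCS1A, a small subunit of Rubisco, was at 15000, 13500 and 13600 CPM, against 16500, 19500 and 24500 CPM (-0.52 ± 0.10). PSAD1 and PSAD2 (overlapping) fell by 0.58 ± 0.09 and 0.75 ± 0.13, and the chlorophyll-binding LHCB1.4, one of several near-identical copies, by 0.76 ± 0.17. Against each hybrid alone the count was 16 lower against C24XLer and 14 against LerXC24, with 0 higher in both. Over all genes 11.2% were lower against C24XLer and 12.5% against LerXC24.

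Markers of the leaf surface were also lower. Of 12 guard cell markers 8 were lower and 1 higher (median -0.42), where 13.3% of all genes were lower and 14.3% higher. The sum of these markers was 113, 118 and 120 CPM in Med-F, against 146 to 185 CPM in the F1, without overlap. SPCH, the factor that starts the stomatal lineage, was at 4.05, 4.62 and 4.82 CPM, against 6.70, 7.31 and 8.35 CPM (-0.71 ± 0.13, adjusted p = 0.00026). FAMA, which completes guard cells, was at 15.9, 17.1 and 15.2 CPM, against 20.8, 24.5 and 29.0 CPM (-0.63 ± 0.10), and the potassium channel KAT1 at 33.8, 32.3 and 31.4 CPM, against 42.9, 47.3 and 61.0 CPM (-0.62 ± 0.09). MUTE, which acts between SPCH and FAMA, went the other way (0.50 ± 0.17, adjusted p = 0.034, but 0.053 to 0.091 when any library other than C24XLer C and LerXC24 A was left out). Among 13 trichome and epidermis markers 6 were lower and 1 higher. ATML1 and PDF2, which specify the epidermis, fell by 0.52 ± 0.09 and 0.36 ± 0.08, and the wax gene CER6 by 0.48 ± 0.10. Of 8 phloem markers 3 were higher and 0 lower, with a sum of 416, 449 and 514 CPM in Med-F, against 364 to 399 CPM in the F1. What part the changed balance of these markers has in the other lists was not tested.

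PIF4, YUC8 and the auxin-response genes IAA29 and IAA19 were all lower in Med-F than in the F1 mean, and the calls of PIF4 and YUC8 hung on single libraries. PIF4 was at 181, 180 and 172 CPM in Med-F, against 180, 215 and 264 CPM in the F1 (-0.32 ± 0.12, adjusted p = 0.048). The groups met at 180 CPM, in C24XLer A, and the call ended under 9 alternatives, with an adjusted p of 0.057 to 0.14 when any library other than C24XLer A and LerXC24 A was left out. YUC8 was at 2.41, 2.44 and 1.41 CPM, against 2.41, 2.85 and 6.64 CPM (-0.79 ± 0.26, adjusted p = 0.028). YUC8 was called against LerXC24 alone (-1.27 ± 0.29, adjusted p = 0.0029) but not against C24XLer (-0.31 ± 0.3, adjusted p = 0.5). The parents averaged 2.48 CPM of YUC8 in C24 and 2.15 CPM in Ler, near Med-F. Its high F1 values, 6.64 and 5.58 CPM, were those of LerXC24 B and C, the F1 libraries with the highest clock index. With that index as a covariate the change was -0.75 (adjusted p = 0.0042), and without sibling 3 the change was -0.57 (adjusted p = 0.17), without LerXC24 B -0.66 (adjusted p = 0.069). IAA29 was at 10.4, 8.98 and 5.92 CPM in Med-F, against 16.9, 19.9 and 40.1 CPM in the F1 (-1.5 ± 0.26, adjusted p = 0.00013), and IAA19 at 6.01, 5.90 and 5.92 CPM, against 8.51, 9.26 and 11 CPM (-0.68 ± 0.10, adjusted p = 3.2e-05). Neither overlapped with the F1, and both calls held under every alternative, with changes of -1.67 to -1.3 and -0.71 to -0.63. IAA29 averaged 14.5 CPM in C24 and 9.26 CPM in Ler, and IAA19 averaged 7.61 CPM in C24 and 10.4 CPM in Ler.

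Over the lists, the shares of auxin-response and auxin-synthesis genes called were near the 14.3% higher and 13.3% lower of all genes. Auxin-response genes gave 6 of 34 higher and 5 lower, and auxin-synthesis genes 2 of 18 higher and 3 lower. PIF and shade genes gave 2 of 20 higher and 5 lower, with 35.0% called in all beside 27.6% of all genes. At 7 of the 34 auxin-response genes every Med-F library lay below every F1 library, and at 2 above (9.07% and 9.65% of all genes). Among PIF and shade genes 3 lay below and 0 above, and among auxin-synthesis genes 0 below and 2 above. The auxin-response count lower was 8 without C24XLer C or LerXC24 A, and the PIF and shade count lower was 3 without sibling 2, sibling 3 or LerXC24 B. TAA1, the aminotransferase a step before YUC8, was at 9.31, 7.88 and 8.46 CPM in Med-F, against 3.92, 4.60 and 5.59 CPM in the F1 (0.88 ± 0.12, adjusted p = 1.5e-05), near Ler (8.09 CPM) and above C24 (4.68 CPM). Of the GH3 enzymes that conjugate auxin to amino acids, GH3.2 rose by 1.12 ± 0.18 and GH3.6 by 0.67 ± 0.18. ST2A, a jasmonate sulfotransferase that shade induces through PIF factors, was at 4.64, 2.92 and 4.49 CPM, against 9.26, 18.8 and 26.3 CPM (-2.08 ± 0.33, adjusted p = 5.6e-05). PIF7 (overlapping) rose by 0.52 ± 0.10.

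Each of the growth-related lists had 0 to 6 members called in either direction, where 14.3% of all genes were higher and 13.3% lower. The share called in all was 18.5% for brassinosteroid and gibberellin, 26.1% for cell-wall and 31.0% for cell-cycle genes. It was 43.8% for leaf growth regulators, beside 27.6% of all genes. Of 27 brassinosteroid and gibberellin genes 0 were higher and 5 lower, among them GA2OX1, which inactivates gibberellin (-1.18 ± 0.27), and BEE1 (-0.81 ± 0.16). Of 23 cell-wall genes 1 was higher and 5 lower, among them EXPA8, an expansin that loosens the wall, at 35.8, 48.1 and 28.7 CPM in Med-F, against 58.0, 83.7 and 93.0 CPM in the F1 (-1.12 ± 0.17). Of 29 cell-cycle genes 6 were higher and 3 lower. CYCD3;3, a D-type cyclin that keeps leaf cells dividing, was at 19.5, 13.9 and 13.2 CPM, against 5.22, 6.52 and 7.19 CPM (1.28 ± 0.14, adjusted p = 5.5e-07), and the parents averaged less, with 10.1 CPM in C24 and 8.33 CPM in Ler. Among 16 leaf growth regulators 4 were higher, KLU (1.06 ± 0.32), GIF1 (0.81 ± 0.28), GRF5 and ANT, which prolong division, and 3 were lower, TCP4 (-0.49 ± 0.09), TCP2 and TCP3 (overlapping), which end it. These small counts hung on single libraries: 2 brassinosteroid and gibberellin genes and 2 cell-wall genes were lower without sibling 3, and 0 leaf growth regulators were higher without sibling 1. TCP2 was not called without sibling 2, sibling 3, C24XLer B or LerXC24 A, nor TCP3 without sibling 1 or sibling 2, and GIF1 and GRF5 were also lost without C24XLer A or LerXC24 A, and GIF1 without LerXC24 C. Without C24XLer A 3 brassinosteroid and gibberellin genes were lower, without sibling 2 or C24XLer B 3 cell-wall genes were lower, and without LerXC24 A 2 leaf growth regulators were higher. Without C24XLer A 5 leaf growth regulators were lower.

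In the lists of the clock, of flavonoids, of silencing and of salicylic acid, 1 to 5 members were called in either direction. Over all genes 14.3% were higher and 13.3% lower. Of 23 clock genes 4 were higher and 4 lower, with ELF4 at 0.69 ± 0.14 and LHY at 0.56 ± 0.09, of 24 flavonoid genes 5 were higher and 2 lower, with PAP2 at 1.25 ± 0.25 and MYBL2 at -1.06 ± 0.22, and of 24 silencing genes 4 were higher and 5 lower. These counts also moved with single libraries: without sibling 3, 0 clock genes and 1 silencing gene were lower and 2 flavonoid genes higher, and without sibling 1, 1 clock gene and 1 silencing gene were lower and 2 flavonoid genes higher. Leaving out sibling 2 or any F1 library but C24XLer C and LerXC24 B gave 1 or 2 clock genes lower, C24XLer B or LerXC24 C 3 flavonoid genes higher, and C24XLer C or LerXC24 C 3 silencing genes lower. Of 29 salicylic acid and defence genes 3 were higher, SNC1, RPP4 and CYP71A13 (overlapping), and WRKY62 was lower. SNC1 and RPP4 are related receptors of the same gene cluster, between which reads may be shared. RPP4 was not called without sibling 2, CYP71A13 without sibling 3 and WRKY62 without sibling 1. SNC1 was at 207, 281 and 241 CPM in Med-F, against 135, 150 and 192 CPM in the F1 (0.62 ± 0.09, adjusted p = 1.9e-05), and the parents averaged 305 CPM in C24 and 47.3 CPM in Ler. PR1, the salicylic acid marker, was at 1.42, 3.93 and 12.3 CPM, against 1.73, 4.21 and 11.2 CPM (0.18 ± 1.04, adjusted p = 0.92), and ICS1, which makes salicylic acid, was at -0.07 ± 0.12 (adjusted p = 0.71). Heat-shock genes gave 1 of 19 higher and 0 lower and root markers 0 and 1 of 18. Of 17 senescence and sugar starvation genes 6 were lower and 2 higher, with DIN1 at -1.83 ± 0.36 and SAG29 at 1.49 ± 0.36.

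Against each hybrid alone, Med-F differed at 6654 genes from C24XLer (22.7%) and at 7143 from LerXC24 (24.4%). The count against C24XLer was 4150 without sibling 1, and that against LerXC24 was 4734 without LerXC24 C. With all libraries, 4062 genes were called against both in the same direction and 3 in opposite directions. The reciprocal hybrids themselves differed at 1438 genes (4.91%), with 2.34% higher and 2.57% lower in C24XLer, and 344 of the genes called against the F1 mean were among them. Over all genes 11.6% were higher against C24XLer and 12% against LerXC24. Floral organ genes were higher at 7 of 10 against either hybrid, iron genes at 10 of 23 against C24XLer and 13 of 23 against LerXC24, and flowering-time genes at 12 and 10 of 26.

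Genes that differ strongly between the parents showed whose level Med-F had. The limit of counting on the TAIR10 reference, given above, holds here too. At 210 genes C24 and Ler differed at least 4-fold (a log2 difference of 2) with at least 10 CPM in the higher parent, and the position of Med-F between them was placed on a log2 scale of CPM plus 0.5, where 0 is the Ler level and 1 the C24 level. Med-F was on the C24 side (above 0.75) at 79 genes, on the Ler side (below 0.25) at 85 and between at 46. The F1 mean was between at 129, with a median position of 0.625 and quartiles of 0.376 and 0.752. Of the 210 genes 153 (72.9%) were called between Med-F and the F1, beside 27.6% of all genes. Since the side and the difference from the F1 use the same Med-F values, the match between them is a description: of the 140 called genes on a parental side, all 140 had moved from the F1 towards that parent.

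The sides came in blocks along the chromosomes. Leaving out genes between the sides, 12 runs of 5 or more neighbouring genes on the same side held 116 of the 163 genes with a side on chromosomes 1 to 5. Some neighbours, such as MRD1 and HEI10 or AT1G24388 and AT1G24390, overlap and may share reads. Runs with such pairs hold fewer separate genes than counted. The longest was a Ler run of 27 genes over 13.3 Mb of chromosome 1, from AT1G23935 at 8461757 to AT1G58602 at 21766048, which takes in AT1G35115, MRD1 and RXW8, and C24 runs of 7 genes lay on either side of it. Chromosome 2 had Ler runs of 10 and 6 genes up to AT2G25510 at 10857217, and then a C24 run of 10 genes from HSFA2 at 11135624 to 18071826. SOC1 was a single Ler-side gene beyond it, at 18807505. On chromosome 4 a Ler run of 8 genes began with AOP3 and AOP2 and ended at 6454209, and C24 runs of 6 and 9 genes reached from 7406065 to 18152597. On chromosome 5 a C24 run of 11 genes ended at 21250426, with RD29A inside it, and a Ler run of 9 genes followed from 21801143 to 25286121. Chromosome 3 was the least clear, with 11 genes on each side and 14 between, and its 1 long run was of 6 C24-side genes. FLC, at a position of 0.26, fell just outside the Ler side.

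**Figure D5:**
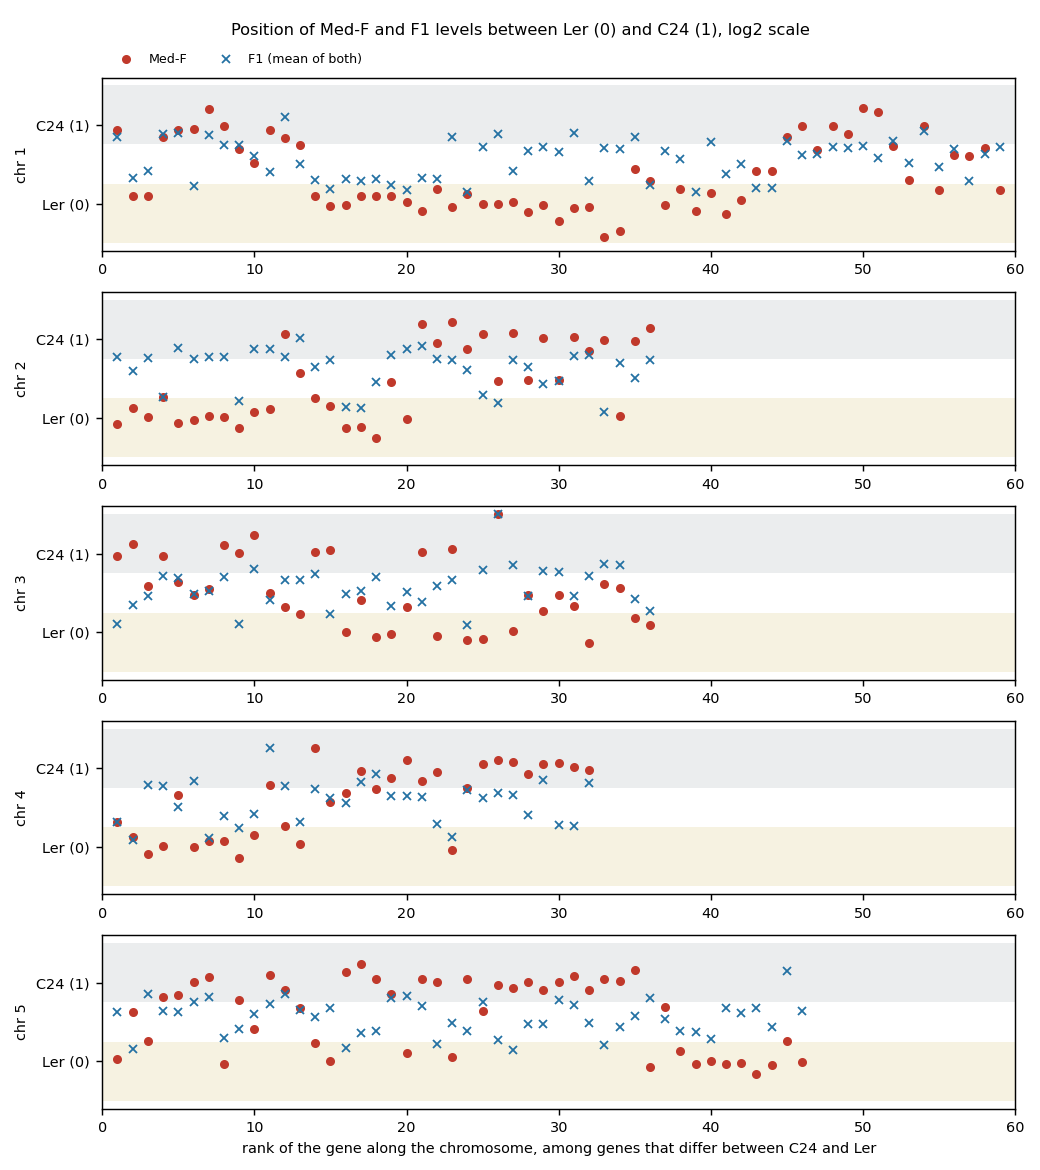
Position of the level of Med-F (red points) and of the F1 mean (blue crosses) between Ler (0) and C24 (1) on the log2 scale, at 209 genes that differ at least 4-fold between the parents, in order of rank along chromosomes 1 to 5; the shaded bands are the Ler side (below 0.25) and the C24 side (above 0.75), and 1 gene beyond the axis is drawn at its edge. Med-F runs along 1 band for stretches of genes and then changes to the other, while the F1 crosses lie mostly between the bands.

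These genes hold several of the changes above. AOP2 was at 1.46 CPM on average in Med-F and 2.69 CPM in Ler, against 784 CPM in C24. Its neighbour AOP3, which makes hydroxyalkyl glucosinolates, was at 112 ± 16 CPM in Med-F, against 218 CPM in Ler and 1.15 CPM in C24. AOP3 was not called against the F1 (-0.37, adjusted p = 0.17), where it averaged 201 CPM in C24XLer and 104 CPM in LerXC24. RD29A, on the C24 side, averaged 50.7 CPM in Med-F and 64.7 CPM in C24, against 533 CPM in Ler. The immune receptor pair CSA1 and DAR4, neighbours on chromosome 5, were at positions 1.01 and 1.07, with 68.0 and 47.3 CPM in Med-F. Of the 1179 genes that changed at least 2-fold between Med-F and the F1, 650 (55.1%) were also called between the parents, beside 25.8% of all genes tested. IMA1, at 6.22 CPM in C24 and 4.29 CPM in Ler on average, was not among the 210.

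Against the mean of the other 5 F6 lines, which share no library with the F1, Med-F differed at 7253 genes (24.8%), with 4215 higher (14.4%) and 3038 lower (10.4%), and at 3845 without sibling 1. Both comparisons use the Med-F libraries. There were 5244 genes called in both in the same direction, and at 452 of them with at least 10 CPM the Med-F libraries overlapped with neither the F1 nor the 15 other F6 libraries. The largest such rises were at FRO3, RXW8, SULTR1;2, AST56 and the microRNA gene MIR863, which overlaps another counted gene. SULTR1;2 was at 28.0 to 35.3 CPM in Med-F, beside 4.46 to 11.9 CPM in the other F6 libraries (1.90 ± 0.18, adjusted p = 1.9e-08). The largest falls were at AT2G25510, AOP2, AT2G25450, AT3G44215 and MRD1. AT2G25450, annotated as similar to ACC oxidase, was at 0.375, 1.23 and 0.898 CPM in Med-F, beside 8.39 to 29.3 CPM in the other F6 lines and 7.95 to 10.7 CPM in the F1.

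The gene lists were counted in that comparison too, where 14.4% of all genes were higher and 10.4% lower. Flowering-time genes were higher at 12 of 26 and lower at 6, floral organ genes higher at 7 of 10, iron genes higher at 13 of 23 and lower at 4, and photosynthesis genes lower at 18 of 38 with 0 higher. AP3 rose by 2.17 ± 0.20 and BHLH39 by 3.84 ± 0.41. Jasmonate genes were lower at 3 of 27, meristem genes higher at 4 of 12, guard cell markers lower at 4 of 12, and cold and dehydration genes lower at 8 of 34. The mean hides single lines. Floral organ genes summed to 57.0, 48.5 and 43.1 CPM in Sml-D, beside 61.3, 38.3 and 45.4 CPM in Med-F. Guard cell markers summed to 110 to 126 CPM in Sml-D and 113 to 120 CPM in Med-F. Meristem genes summed to 55.8 to 70.0 CPM in Sml-D and 57.9 to 66.6 CPM in Med-F. In these sums Med-F did not stand apart from Sml-D. SNC1 had a median of 41.7 CPM in the other F6 libraries and a log2 difference of 1.99 ± 0.07 from them, and PIF4 did not pass (0.19 ± 0.10, adjusted p = 0.20).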

How the data were processed

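RNA-seq was made from shoots of 15-day seedlings of 10 lines with 3 libraries each. The authors deposited raw counts of reads per gene; per the submitters' processing notes the build was TAIR10, and FastQC and DESeq were used. The aligner, counter and strand setting were not given in the sources used here. Gene counts (47320101 to 52406429 in Med-F, 50899595 to 59836794 in the F1) exceed the total reads, for a reason not given. Per the labels, the Med-F libraries carry the same barcodes as the Ler libraries.

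Genes were named from RefSeq TAIR10.1, which matched 32742 of 33498 gene models, and 7139 counted genes overlap another, so that their reads may be shared and their values are uncertain. Counts were fitted with edgeR 4.0.16 (R 4.3.3, limma 3.58.1) by the quasi-likelihood test, with TMM factors, filterByExpr at a minimum count of 10 and a coefficient per line over all 30 libraries, and Benjamini-Hochberg adjustment over 29268 genes at 0.05. The contrast was Med-F minus the mean of both F1 hybrids. CPM used TMM-scaled library sizes. On simulated data the fit called 57.6% of genes changed by 0.5 on the log2 scale, 94.0% at 1 and 0.0139% of unchanged genes. There 28876 of 29076 genes were unchanged and each gene had the same spread in every line. In the data 27.6% of genes were called and the Med-F libraries differed, so these rates do not carry over.

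Named were the 12 largest rises and falls (called, at least 10 CPM, no overlap of libraries), up to 4 called members per list and direction, 5 each way against the other F6 lines, and a few fixed genes; further examples were picked after their values were seen. The members and the 27 gene lists were chosen with earlier results of these data known. Alternatives were DESeq2 1.42.0 (size factors, Wald test), other filters, fewer libraries in the fit, the F1 as 1 group, the clock index as a covariate, a replicate block and leaving out each library.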

Additional observations from a re-analysis of the deposited data

Results flagged for a closer look

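Over the 6 F1 libraries, 2 of 30 genes checked had a library that stood apart by Dixon's test, where chance gives about 1 in 20. BHLH39 was at 9.66 CPM in C24XLer B, against 1.36 to 4.11 CPM in the other 5 F1 libraries. AT1G35115 was at 13.2 CPM in C24XLer A, the lowest F1 library, where the F1 median was 16.8 CPM.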

How the results depend on the processing

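The 8082 genes called between Med-F and both F1 hybrids were 4395 with only the 9 libraries in the fit (4320 of them among the 8082), and 5141 to 8225 when 1 library was left out. The lowest was without Med-F sibling 1, with 4749 of its 5141 genes among the 8082. The other settings, DESeq2 and the filters among them, gave 7701 to 8669. Leaving out 1 library gave 4150 to 7212 genes against C24XLer and 4734 to 7391 against LerXC24, and leaving out 1 Med-F library gave 3845 to 7615 against the other 5 F6 lines, none of whose libraries was left out. With parents at least 8-fold apart (3 on the log2 scale), 38 genes were on the C24 side and 56 on the Ler side, since fewer genes qualify; leaving out a sibling gave 79 to 81 and 84 to 90. No paired analysis was possible for Med-F against the F1 because the Med-F siblings are numbered and the F1 replicates lettered. Among the F6 lines, sibling numbers did not pair libraries (r of -0.146 to 0.126 between same-numbered deviations), and 7080 genes were called with a replicate block against 7494 without it in the same 18 libraries. Of 162 called genes that the naming rule chose, 65 lost the call under at least 1 alternative, but of the 24 largest only CRU3 did (0.24, adjusted p = 0.27, without sibling 2), and none changed direction. Except where a value without a library is given, the cause was not tested. Genes under about 1 CPM, such as FT, rest on few reads.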
